A study of Mus musculus with 6 samples.

Results

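The resting transcriptome of RAW264.7 cells was described from the 3 untreated libraries of a series that holds 6 libraries in all. Membership was set by the sample labels alone, which call these libraries untreated, and no measured value entered the choice. RAW264.7 is a macrophage-like mouse line that grew out of a tumour induced by Abelson murine leukaemia virus in a male BALB/c mouse, and is one line kept in continuous culture rather than cells taken from several animals. The cells were grown in high-glucose DMEM with serum and antibiotics. The labels give them no agent, dose or time. The study places its sequenced macrophages in the lower chamber of a transwell culture shared with tumour cells, and whether the untreated cells were kept that way is not stated. The labels do not say whether the 3 libraries came from separate cultures, so every spread given here is that between these libraries and may be technical. The other 3 libraries of the series received a compound and were not used.

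Macrophages are phagocytes that sense, engulf and digest. They carry pattern recognition receptors for microbial products, receptors for antibody and for dying cells, and a large lysosomal compartment in which acid proteases and hydrolases break down what was taken up. Their survival depends on the receptor for colony-stimulating factor 1, and the transcription factor PU.1, encoded by Spi1, is needed for the lineage to form. From this resting state they can release cytokines and chemokines, make reactive oxygen through the NADPH oxidase, and present peptides on major histocompatibility complex (MHC) molecules.

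Levels are given as FPKM (fragments per kilobase of transcript, scaled to the mapped fragments of the library), a measure that corrects for length and so lets genes be compared with each other. A gene is counted as expressed where it reached 1 FPKM in each of the 3 libraries. By that threshold 10722 of 28836 genes were expressed, and 9612 of 16914 protein-coding genes (56.8%), which is the background for the gene lists that follow. A further 1644 protein-coding genes had no count in any library. The libraries held 73077089, 76821423 and 77337345 estimated counts, and a gene with 0 counts in all of them was not detected at that depth. Spearman correlations between libraries, taken across the 11009 genes whose mean reached 1 FPKM, were 0.991 to 0.992; genes are not independent replicates.

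Levels of 5 marker genes of macrophages are given first. They were chosen with earlier results of these data known, so their levels are no test of the label. Lyz2, the lysozyme of myeloid cells, lay at 13344, 12759.7 and 13279 FPKM in replicates 1, 2 and 3, the highest level of any gene in the table. Ctsd, the lysosomal aspartic protease cathepsin D, lay at 4613, 4637 and 4469 FPKM, and Gpnmb, a glycoprotein of lysosome-rich macrophages, at 2466, 2468 and 2397 FPKM. Both stood among the 8 highest nuclear protein-coding genes, with no overlap between their ranges. Tyrobp, which encodes the signalling adaptor DAP12, lay at 456, 506 and 450.2 FPKM. Csf1r, the receptor for colony-stimulating factor 1, lay at 283, 288 and 272 FPKM. All 5 marker genes were thus high in every library, at ranks 1, 3, 8, 48 and 107 among nuclear protein-coding genes. On mm10, Lyz2 spans chr10:117277331-117282321 on the minus strand, Ctsd chr7:142375911-142388038 on the minus strand, Gpnmb chr6:49036546-49070929 on the plus strand, Tyrobp chr7:30413760-30417582 on the plus strand and Csf1r chr18:61100598-61131134 on the plus strand.

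**Figure D1:**
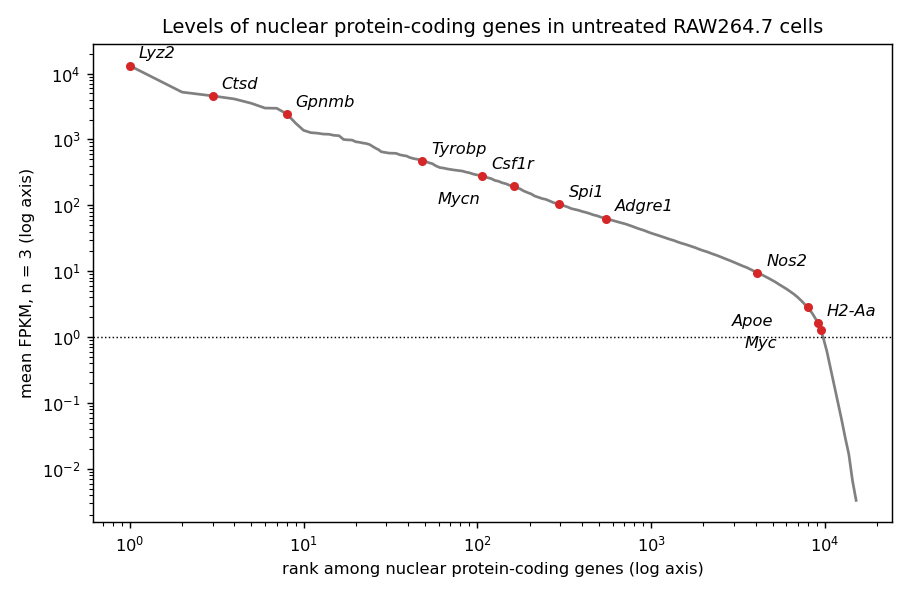
Mean FPKM over the 3 untreated libraries (vertical, log axis) against rank among nuclear protein-coding genes (horizontal, log axis), with 12 named genes as red points and the 1 FPKM threshold as a dotted line. Lyz2 heads the curve at 13128 FPKM, Mycn lies at rank 162 and Myc, at 1.28 FPKM, lies just above the threshold at rank 9456.

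Markers of other cell types were close to 0. Of 82 such markers with a value, covering B cells, T cells, natural killer cells, neutrophils, mast cells, dendritic cells, epithelium, melanocytes, fibroblasts, endothelium, erythroid cells and hepatocytes, 22 had 0 counts and 6 were expressed. Those 6 were Itgax at 9.56 ± 0.0458 FPKM (mean ± SD over the 3 libraries, as throughout), Vwf at 4.67 ± 0.16, Ighm at 2.01 ± 0.243, Lck at 1.65 ± 0.0624, Hbb-bs at 1.4 ± 0.359 and S100a8 at 1.28 ± 0.223 FPKM. Itgax, an integrin chain used to mark dendritic cells, is also made by macrophages. The summed level of the 4 melanocyte markers with a value was 0.177 ± 0.11 FPKM, and that of the 9 epithelial markers 1.62 ± 0.196 FPKM. The line's origin was visible in its Y chromosome: Ddx3y lay at 5.31, 4.34 and 6.58 FPKM and Eif2s3y at 6.02, 5.64 and 6.93 FPKM, while Xist, the RNA of the inactive X, was listed at 0 FPKM with 12 counts in all. Abl1, the cellular counterpart of the viral oncogene, lay at 7.2 ± 0.142 FPKM and its relative Abl2 at 7.56 ± 0.242 FPKM, with overlapping ranges.

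The list of macrophage identity genes held both extremes. Of 24 genes, 15 were expressed and 5 had no count at all. After the markers came Cd68, a glycoprotein of late endosomes, at 1152 ± 31.8 FPKM, and Mpeg1, the pore-forming perforin-2, at 1139 ± 25.4 FPKM, with overlapping ranges. Cd14, the co-receptor for lipopolysaccharide, lay at 699 ± 8.15 FPKM, Itgam (CD11b) at 157 ± 2.79 FPKM and Adgre1, which encodes the F4/80 antigen, at 62.9 ± 1.65 FPKM. The 5 genes with 0 counts were Cd163, the haemoglobin scavenger receptor, Clec4f of Kupffer cells, the scavenger receptor Marco, the phosphatidylserine receptor Timd4 and the complement receptor Vsig4, all known from subsets of tissue-resident macrophages. The monocyte gene Ly6c2 was at 0.04 FPKM and Ccr2, the receptor through which monocytes leave the marrow, at 0.807 FPKM.

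To show the DNA from which the contrasting genes start, windows of 250 bases before to 50 bases after the annotated start are given below for the 3 highest markers that have one, for Mycn, the highest transcription factor gene, and for Pycard, which was almost silent; the levels of the last 2 are described further on. The sequences are those of RefSeq on GRCm38.p6, read 5′ to 3′ on the strand of the gene, at chr10:117282223-117282522 (Lyz2, minus), chr7:142387778-142388077 (Ctsd, minus), chr6:49036268-49036567 (Gpnmb, plus), chr12:12941787-12942086 (Mycn, minus) and chr7:127993818-127994117 (Pycard, minus). Capitals mark every match, on either strand, to 5 motifs: GAGGAAGT, of the type bound by PU.1, CACGTG, the E-box, TGANTCA, of the type bound by AP-1, GGGCGG, of the type bound by Sp1, and TATAAA. None of the capital stretches shown overlap each other.
Lyz2: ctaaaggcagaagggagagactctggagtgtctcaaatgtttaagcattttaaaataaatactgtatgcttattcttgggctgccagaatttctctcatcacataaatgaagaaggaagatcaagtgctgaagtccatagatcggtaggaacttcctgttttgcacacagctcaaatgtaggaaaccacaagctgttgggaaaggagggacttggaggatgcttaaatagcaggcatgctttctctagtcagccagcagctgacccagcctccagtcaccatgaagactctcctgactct
Ctsd: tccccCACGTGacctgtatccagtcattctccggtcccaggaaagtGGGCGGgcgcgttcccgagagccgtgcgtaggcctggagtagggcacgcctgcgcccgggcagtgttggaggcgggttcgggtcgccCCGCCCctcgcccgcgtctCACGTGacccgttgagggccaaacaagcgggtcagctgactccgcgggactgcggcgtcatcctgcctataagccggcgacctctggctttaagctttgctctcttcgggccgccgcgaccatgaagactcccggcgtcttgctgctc
Gpnmb: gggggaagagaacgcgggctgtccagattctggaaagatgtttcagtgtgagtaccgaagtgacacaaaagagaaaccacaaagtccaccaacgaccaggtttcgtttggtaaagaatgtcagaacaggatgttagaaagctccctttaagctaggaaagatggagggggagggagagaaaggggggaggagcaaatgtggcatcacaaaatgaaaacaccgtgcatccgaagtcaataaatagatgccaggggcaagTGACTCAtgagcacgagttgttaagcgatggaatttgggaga
Mycn: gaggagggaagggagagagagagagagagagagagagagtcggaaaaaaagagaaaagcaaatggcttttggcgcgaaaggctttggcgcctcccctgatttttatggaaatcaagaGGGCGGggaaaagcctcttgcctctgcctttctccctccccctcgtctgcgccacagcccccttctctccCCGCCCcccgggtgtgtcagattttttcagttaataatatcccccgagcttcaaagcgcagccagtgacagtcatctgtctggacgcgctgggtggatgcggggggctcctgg
Pycard: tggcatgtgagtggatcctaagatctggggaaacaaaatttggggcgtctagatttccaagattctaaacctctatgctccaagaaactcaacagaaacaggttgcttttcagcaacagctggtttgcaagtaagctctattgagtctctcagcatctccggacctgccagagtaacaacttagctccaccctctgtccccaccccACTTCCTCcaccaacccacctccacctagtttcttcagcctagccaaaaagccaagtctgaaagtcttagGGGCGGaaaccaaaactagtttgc
The Lyz2 window held no exact match to any of these motifs, and sites that differ from them by a base were not marked. The Ctsd window held CACGTG at 2 places and GGGCGG at 2, the Gpnmb window TGANTCA at 1, the Mycn window GGGCGG at 2, and the Pycard window GAGGAAGT at 1 and GGGCGG at 1. Among 13054 nuclear protein-coding genes matched to a window (77.2% of 16901), GAGGAAGT occurred in 3.06%, CACGTG in 9.25%, TGANTCA in 5.74%, TATAAA in 9.01% and GGGCGG in 58% of windows. Since under 80% of the genes had a window, no relation between these letters and level was drawn. The window of Ctsd starts from a site 211 bases away from the start of the gene in the deposited table, that of Mycn 78, that of Lyz2 49 and that of Gpnmb 28 bases away, while that of Pycard uses the same base.

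A few genes held much of the summed FPKM. The 10 highest genes held 17.1% ± 0.448 of the summed FPKM and the 100 highest 43.3% ± 0.274 (SD, n = 3). By deposited counts, which are not corrected for length, the shares were 12.1% and 28%. Beside Lyz2 and Ctsd, the nuclear protein-coding genes at the top were Eef1a1, the elongation factor that brings transfer RNA to the ribosome, at 5204, 5176 and 5268 FPKM, Spp1, which encodes the secreted protein osteopontin, at 4079.5, 3999 and 4248 FPKM, and the ferritin chains Fth1 and Ftl1 at 3536 ± 162 and 2970.2 ± 112 FPKM. Ctss (cathepsin S) at 2990.0 ± 117 FPKM overlapped Ftl1. For Ftl1 26.5% of the exonic bases overlap a model on the other strand. Ribosomal proteins and the elongation factors Eef1a1 and Eef2 supplied 9 of the 25 and 33 of the 100 highest nuclear protein-coding genes. Ribosomal proteins were counted by gene name, and the 33 include Rps18-ps6, whose level is described below. The mitochondrial chromosome contributed 11.4% to 12% of the summed FPKM per library, led by mt-Co1, a subunit of cytochrome c oxidase, at 11055, 11368 and 11114 FPKM. All 13 of its protein genes were expressed, down to mt-Nd3 at 166 ± 15.3 FPKM. The share of this chromosome leaves out the nuclear copies of its sequence described below, whose reads cannot be told apart from its own.

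Not every entry near the top was a separate gene product. Gene models on chromosome 1, at chr1:24611535-24616197, copy a stretch of the mitochondrial genome. Gm28437 is identical to mt-Co3 over 783 aligned bases and lay at 3657 ± 93.3 FPKM beside 3684 ± 90.6 for mt-Co3. Gm10925 is identical to mt-Atp6 over 678 bases, and Gm28661 to mt-Co2 over 681, and they lay at 3777 ± 154 and 3516 ± 116 FPKM beside 3539 ± 138 and 3545 ± 119 FPKM. Reads of such pairs cannot be told apart. CT010467, a ribosomal RNA model at 4039, 3246 and 4542 FPKM, also ranked among the 10 highest, although the libraries were made from poly(A) RNA. Among nuclear protein-coding genes alone, the 10 highest held 17.1% ± 0.183 and the 100 highest 36.1% ± 0.108 of the summed FPKM.

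Most lysosomal genes were expressed. Of 374 protein-coding genes annotated to the lysosome in the deposited table, 295 were expressed (78.9%) and 12 had 0 counts. The shorter lists, chosen with earlier results known, held fewer exceptions. All 22 genes of the list of lysosomal membrane proteins and hydrolases were expressed, against 56.8% of protein-coding genes, as were 13 of 14 cathepsins and legumain. The cathepsin levels covered a wide range. Ctsd alone held 43.3% of the summed cathepsin level, followed by Ctss at 2944, 2903 and 3123 FPKM, Ctsb at 1273, 1286 and 1243 FPKM and Ctsz at 850.1, 837 and 820.2 FPKM. These 4 did not overlap, and Ctsd was 3.61 ± 0.0152 times as high as Ctsb. Below them came Lgmn (legumain, an asparaginyl endopeptidase) at 348 ± 5.76 FPKM, Ctsa at 317 ± 9.8 and Ctsl at 165 ± 3.38 FPKM. The collagen-degrading cathepsin K of osteoclasts, Ctsk, lay at 16.7 ± 1.04 FPKM and overlapped Ctsf at 16 ± 0.326 FPKM. Ctsh, at 1.34 ± 0.0693 FPKM, was the lowest one expressed, and Ctsw, known from cytotoxic lymphocytes, had 0 counts. By gene model, 34.4% of the exonic bases of Ctsd also belong to another model on its strand, and 26.9% of those of Ctsl to one on the other strand. Among the other lysosomal genes, Psap (prosaposin, the precursor of activators of lipid breakdown) reached 1243 ± 25.3 FPKM, Lamp1 864 ± 28.9, Grn (progranulin) 567 ± 18.5 and Hexa, a hexosaminidase chain, 367 ± 10.5 FPKM. Smpd1, acid sphingomyelinase, was the lowest of the list at 8.06 ± 0.108 FPKM.

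**Figure D2:**
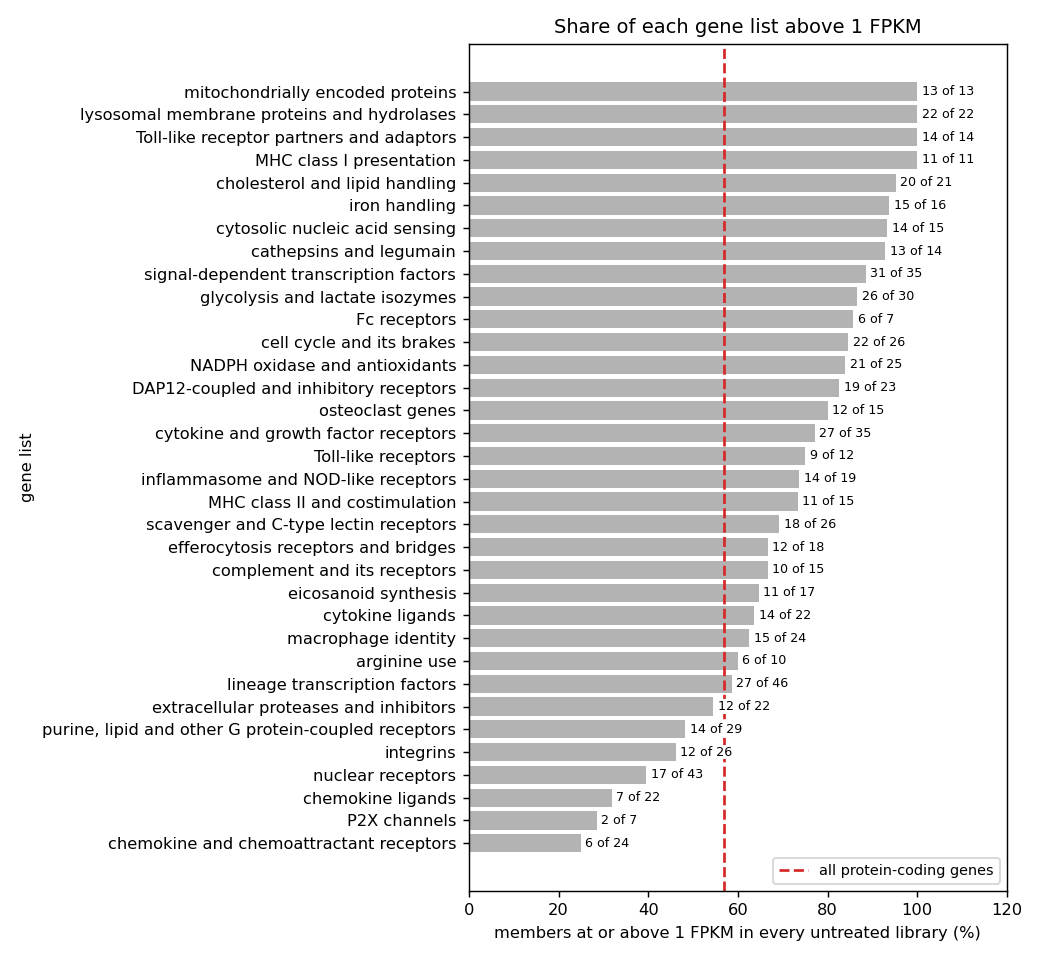
Share of each list of macrophage states, gene families or pathways (bars, %) whose members reached 1 FPKM in every untreated library, with the number expressed of the number with a value at each bar, and the share of all protein-coding genes (56.8%) as a dashed line. The lists plotted, which leave out the marker lists of other cells and of the origin of the line, run from 6 of 24 chemokine and chemoattractant receptors to 4 lists with every member expressed, among them the 22 lysosomal membrane proteins and hydrolases.

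Toll-like receptors recognise microbial lipids, proteins and nucleic acids, some at the cell surface and some in endosomes. Of 12 genes, 9 were expressed, in a clear order. Tlr2, a receptor for bacterial lipoproteins, lay at 84.7, 84.9 and 85.9 FPKM. The endosomal RNA receptors Tlr7 and Tlr13 lay at 47.9, 50.3 and 53.2 FPKM and at 46.3, 48.2 and 48.7 FPKM. Tlr4, the lipopolysaccharide receptor, lay at 25.2, 24.1 and 26.2 FPKM. Tlr2 thus stood above Tlr7 and Tlr13, which overlapped each other, and was 3.39 ± 0.125 times as high as Tlr4. Tlr1 and Tlr6, the partners of Tlr2, overlapped at 5.62 to 5.8 and 5.07 to 5.62 FPKM. Tlr8, Tlr9, the receptor for unmethylated CpG DNA, and Tlr3, for double-stranded RNA, followed at means of 4.3, 2.51 and 2.05 FPKM without overlap. Tlr12 (37 counts in all), Tlr5 (16), the flagellin receptor, and Tlr11 (10) were close to 0, with means of at most 0.0467 FPKM.

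All 14 partners and adaptors of these receptors were expressed. Cd14 led them, followed by Unc93b1, which escorts the endosomal receptors, at 121, 119 and 114 FPKM, 2.34 ± 0.196 times the level of Tlr7. Irak2 and Myd88, which carry the signal inward, lay at 33.7 and 24.6 FPKM on average. Ly96, which encodes the MD-2 subunit that holds lipopolysaccharide on Tlr4, was lower, at 4.98, 5.42 and 6.14 FPKM. It lay below Tlr4 in every library.

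**Figure D3:**
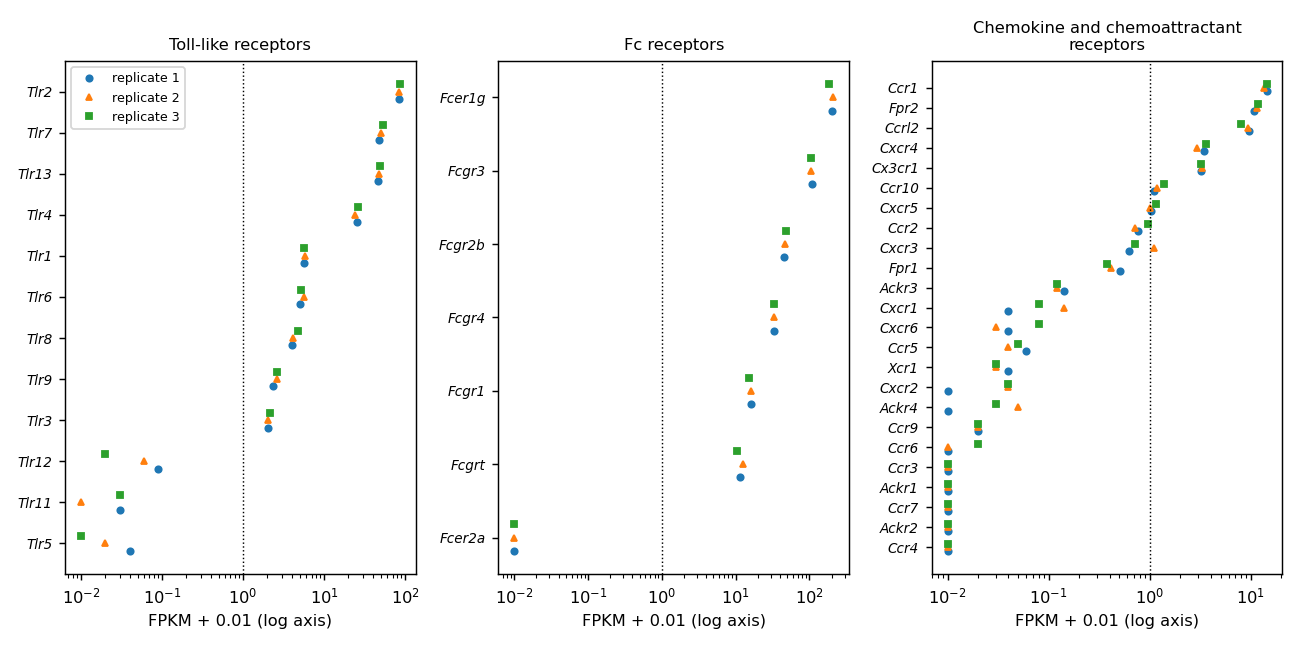
FPKM + 0.01 (log axis) of the Toll-like receptors, Fc receptors and chemokine or chemoattractant receptors in untreated replicates 1, 2 and 3 (circles, triangles, squares), with the 1 FPKM threshold dotted. Tlr2 leads its family at 84.7 to 85.9 FPKM, Fcer1g leads the Fc receptors, and Ccr1, the highest chemokine receptor, stays at 13.6 to 14.2 FPKM; genes listed at 0 sit at the left edge.

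The inflammasome list had a gap at its adaptor. Inflammasomes join a sensor through the adaptor ASC, encoded by Pycard, to caspase-1, which matures interleukin-1β and cleaves gasdermin D. Nlrp3, a sensor, lay at 30.9, 30.3 and 32.1 FPKM, Casp1 at 16.5, 17.2 and 17.4 FPKM and Gsdmd at 24.3, 23.8 and 24.3 FPKM. Pycard had 10, 0 and 0 counts and was listed at 0.03, 0 and 0 FPKM. Sensor, protease and pore-forming substrate were thus expressed in every library, and the adaptor in none. Of the 19 genes with a value, 14 were expressed; beside Pycard, the sensor genes Naip1, Nlrp6, Nlrp12 and Mefv, the gene for pyrin, stayed under 1 FPKM. Aim2, a DNA sensor that also uses ASC, lay at 23.7 ± 1 FPKM, and Il1b at 14.7 ± 0.677 FPKM.

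Cytosolic nucleic acid sensing was expressed nearly throughout, in 14 of 15 genes, at moderate levels. Sting1, the adaptor at the endoplasmic reticulum that the study's compound was built to engage, lay at 12.6, 11.3 and 12.8 FPKM. Cgas, the DNA sensor that makes its ligand, lay at 4.2, 4.5 and 4.54 FPKM. The kinase Tbk1, which both the DNA and the RNA pathway use, reached 21 ± 0.929 FPKM, and Mavs, the mitochondrial adaptor of RNA sensing, 15.7 ± 0.321 FPKM. The DNA-side adaptor and its sensor did not overlap, Sting1 being the higher. Zbp1, a sensor of Z-form nucleic acid, was the single gene of the list below 1 FPKM, at 0.197 FPKM. The exons of Trex1, a DNA exonuclease at 4.42 to 5.68 FPKM, lie wholly within another gene model, so its level is uncertain.

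Receptors for antibody were led by their signalling chain. Fcer1g, the common γ chain, lay at 199.9, 210.0 and 183 FPKM, above Fcgr3 at 109, 106 and 105 FPKM. The inhibitory receptor Fcgr2b lay at 45.7, 46.1 and 47.7 FPKM. The activating Fcgr3 was 2.3 ± 0.0934 times as high as Fcgr2b. Fcgr4 at 33.2 ± 0.327 FPKM, the high-affinity Fcgr1 at 15.9 FPKM and the neonatal receptor Fcgrt at 11.6 FPKM followed without overlap, and Fcer2a, known from B cells, had 0 counts.

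Of 23 DAP12-coupled and inhibitory receptors and their adaptors, 19 were expressed. Tyrobp was the highest. It was followed by the inhibitory receptors Lilrb4a at 355, 336 and 374 FPKM and Sirpa, which reads CD47 on other cells, at 289, 293 and 282 FPKM. For Lilrb4a 35.3% of the exonic bases are shared with another model on its strand. Trem2, a receptor for lipids that signals through DAP12 and that the study names as a target of its compound, lay at 53.6, 55.2 and 53 FPKM, and Tyrobp was 8.72 ± 0.394 times as high. Its relative Trem1, which amplifies inflammation, lay at 0.58, 0.3 and 0.44 FPKM, a fold of 132 ± 46.9 between the 2 genes. Clec5a, another receptor that uses DAP12, reached 77.2, 75.4 and 86.8 FPKM.

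Scavenger and C-type lectin receptors were split, with 18 of 26 expressed. Below Cd68, the neighbouring genes Clec4e (Mincle, a receptor for mycobacterial glycolipid) at 235, 234 and 248 FPKM and Clec4d at 232, 231 and 249 FPKM overlapped each other. Msr1, scavenger receptor A, lay at 76.2 to 87.3 FPKM, and Clec7a (dectin-1, for fungal β-glucan) at 19.9 to 23.1 FPKM. Mrc1, the mannose receptor, and Cd36, which takes up oxidised lipoprotein, were low, at 3.16 to 3.62 and 1.26 to 1.54 FPKM.

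Of 18 genes that serve the uptake of dying cells 12 were expressed, with a list median of 3.965 FPKM. Among them Gas6, Lrp1 and Calr exceeded the receptor kinases Axl, Tyro3 and Mertk. Gas6, which bridges phosphatidylserine to the TAM kinases, lay at 79.5, 77.6 and 76.8 FPKM. Of the TAM kinases, Axl lay at 4.03, 4.32 and 3.71 FPKM, Tyro3 at 0.17, 0.15 and 0.14 FPKM and Mertk at 0.13, 0.09 and 0.09 FPKM. Axl was therefore the single TAM kinase expressed, 40.1 ± 8.56 times as high as Mertk. Lrp1, a large endocytic receptor, reached 85.3 ± 1.52 FPKM and its partner calreticulin, Calr, a chaperone that is also exposed on dying cells, 319 ± 9.02 FPKM. In the complement list, Itgb2 lay at 220.2 ± 2.64 FPKM and C3ar1, the receptor for C3a, at 36 to 37.8 FPKM. Of the soluble components, Cfp (properdin, which stabilises the alternative pathway convertase) lay at 33.7 to 37 FPKM and C3 at 27.7 to 28.3 FPKM. The chains of C1q were low, C1qa at 0.3, 0.22 and 0.15 FPKM, C1qb at 0.27, 0.34 and 0.28 FPKM and C1qc at 0.12, 0.19 and 0.11 FPKM.

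Of 35 listed cytokine and growth factor receptors 27 were expressed, and their ligands were not always made by the same cells. The wider class of 48 protein-coding genes annotated with cytokine receptor activity had 21 expressed (43.75%). Csf1r was 825 ± 135 times as high as Csf1, the gene for one of its ligands, which lay at 0.41, 0.3 and 0.33 FPKM; Il34, the gene for the other, lay at 0.25, 0.15 and 0.21 FPKM. The receptors for tumour necrosis factor, Tnfrsf1b and Tnfrsf1a, stood at 78.4 to 83.9 and 45.8 to 47.7 FPKM, a ratio of 1.75 ± 0.0319. Both chains of the receptors for type I interferon, interferon-γ and interleukin-10 were expressed at 18.7 to 26.5 FPKM. Il1r1, which transmits interleukin-1 signals, had 31 counts in all, and Il1r2, Il2ra and Flt3 had none.

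Of the listed chemokine and chemoattractant receptors 6 of 24 were expressed. Ccr1, which binds CCL3, led this list at 14.2, 13.6 and 14.2 FPKM. Fpr2, a receptor for formyl peptides, followed at 10.6, 11.4 and 11.7 FPKM. Ccrl2 at 8 to 9.48, Cxcr4 at 2.9 to 3.55, Cx3cr1 at 3.19 to 3.29 and Ccr10 at 1.08 to 1.36 FPKM made up the rest, while Cxcr5 fell just short in replicate 2 at 0.99 FPKM. Ccr3, Ccr4, Ccr7 and the decoy receptors Ackr1 and Ackr2 had 0 counts. Other receptors for attractants lie outside this list, among them C3ar1 at 36.8, Ptafr at 24.7 and C5ar1 at 11.1 FPKM.

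Chemokine ligands were few and uneven. Ccl3 lay at 706, 785 and 713 FPKM, Ccl4 at 203, 218 and 202 FPKM, Ccl9 at 189.7, 196 and 195 FPKM and Cxcl2, which draws neutrophils, at 115, 115 and 117 FPKM. Together with Cxcl16, Ccl6 and Ccl2 these were the 7 of 22 genes expressed. Ccl3 was 3.54 ± 0.0643 times as high as Ccl4. Cxcl9, Cxcl10 and Cxcl11, known as targets of interferon, were at 0.1 FPKM or less, and Ccl11, Ccl17, Ccl24 and Cxcl13 had 0 counts. Among other cytokines 14 of 22 were expressed. Beside Spp1 these included Tnf at 176, 173 and 169 FPKM, Tgfb1 at 93.8, 99.1 and 87.6 FPKM and Csf3, the granulocyte growth factor, at 57.6, 55.6 and 54.7 FPKM. Tnf transcripts were thus abundant without any added agent named in the labels. Il10, Il12a, Il12b and Ifnb1 had 0 counts, and Il6 was at 0.0867 FPKM.

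Mycn led the genes annotated with DNA-binding transcription factor activity in the deposited table. Of 660 such protein-coding genes, 338 were expressed (51.2%). This class was chosen after values had been seen, and it leaves out some factors, such as Lyl1 described below. Mycn, the neural member of the MYC family, lay at 195, 201 and 189 FPKM, and Myc at 1.41, 1.29 and 1.15 FPKM. Mycn was 153 ± 13.3 times as high as Myc, and no library came near an overlap. Max, the partner that MYC proteins need to bind DNA, lay at 26.9, 27.8 and 27.1 FPKM.

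Of 46 lineage factors 27 were expressed. Spi1 led at 107, 106 and 97.3 FPKM, above Lyl1, a basic helix-loop-helix factor of early blood cells, at 64.2, 66.9 and 61.9 FPKM, and Ets2 at 51.9, 53 and 51.4 FPKM. Spib, the close relative of Spi1 that works in lymphoid cells, was at 0.04 FPKM. Irf5 at 33.8 ± 1.12 FPKM was 2.02 ± 0.106 times as high as Irf8 at 16.7 ± 0.495 FPKM. Cebpa, a factor of the granulocyte and monocyte lineage, lay at 7.86 ± 0.795 FPKM. Cebpb lay at 40.6, 39.4 and 12.2 FPKM, and its mean of 30.7 FPKM describes no library, since replicate 3 stood far below the other two. Maf was at 0.123 FPKM, and Mitf lay at 6.49 to 7.06 FPKM. Gata1 had 0 counts and Myb, Pax5, Ebf1, Spic and Gata6 had at most 9 each.

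Of 35 signal-dependent factors 31 were expressed. Below Mycn came Atf4, the factor of the integrated stress response, at 149.5, 151 and 146 FPKM, Junb at 141, 141 and 133 FPKM and Nfe2l2 (NRF2, the antioxidant factor) at 92.8, 95 and 93.8 FPKM. Of the NF-κB subunits, Rela was the highest at 22.7 to 26.4 FPKM, and Rel the lowest at 5.35 to 5.43 FPKM. The inhibitor Nfkbia lay above all of them at 85 to 88 FPKM. Stat6 at 57.1 to 59.1 FPKM exceeded Stat3, and Stat4 had 0 counts. Interferon-linked Irf7 stayed at 2.08 to 2.6 FPKM.

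**Figure D4:**
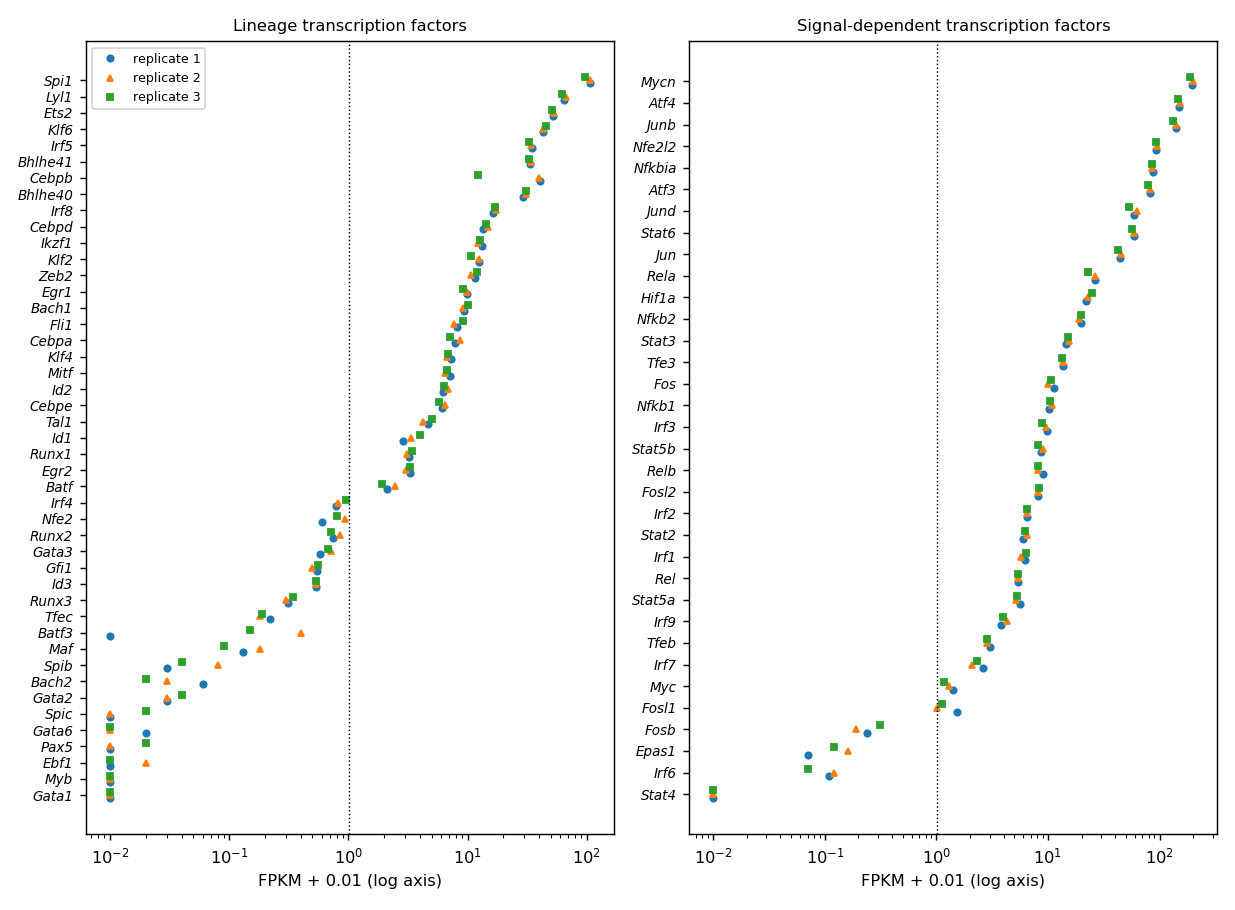
FPKM + 0.01 (log axis) of lineage and signal-dependent transcription factors in untreated replicates 1, 2 and 3 (circles, triangles, squares), with the 1 FPKM threshold dotted; 1 member of each list is not shown. Spi1 leads the left panel at 97.3 to 107 FPKM and Mycn the right one at 189 to 201 FPKM; Cebpb is the factor whose libraries spread widest among those above 10 FPKM.

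Nuclear receptors were a low family, with 17 of 43 expressed. Nr1h2, which encodes the oxysterol receptor LXRβ, led at 27.6, 27.1 and 25.3 FPKM and was 6.34 ± 0.839 times as high as Nr1h3, for LXRα, at 4.86, 3.72 and 4.19 FPKM. Rxrb, the partner of many family members, followed at 17.9, 17.3 and 17.7 FPKM, 6.93 ± 0.651 times Rxra. The β form was thus the higher in both pairs. Pparg, a lipid-sensing receptor of alveolar macrophages, had 0 counts, while Ppard lay at 4.61 to 5.47 FPKM.

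The antigen presentation lists divided by class. All 11 class I genes with a value were expressed, led by B2m at 1158, 1265 and 1169 FPKM and H2-D1 at 627, 618 and 600.3 FPKM. H2-K1 lay at 104, 106 and 96.2 FPKM, and H2-D1 was 6.03 ± 0.202 times as high. These genes resemble each other and differ between mouse strains, so their levels are uncertain. In class II, the invariant chain Cd74 lay at 219.7, 228 and 203 FPKM. The class II chains were low, with H2-Aa at 1.65, 1.7 and 1.53, H2-Ab1 at 2.65, 2.38 and 2.17 and H2-Eb1 at 4.43, 3.99 and 4.19 FPKM. Cd74 was 133 ± 0.888 times as high as H2-Aa. Whether differences between mouse strains affect the class II levels and this ratio was not tested. Ciita, the master activator of class II genes, was at 0.1, 0.06 and 0.12 FPKM. The costimulatory genes Cd80 and Cd86 lay at 10.4 to 11.8 and 7.94 to 8.17 FPKM, and Cd274, for the inhibitory ligand PD-L1, at 18.9 to 21.6 FPKM.

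Enzymes of arginine metabolism were unequal. Nos2, the inducible nitric oxide synthase, lay at 9.76, 8.99 and 9.66 FPKM, and Arg1, the arginase of alternatively activated macrophages, had 5, 2 and 0 counts. The mitochondrial arginase Arg2 lay at 9.84, 10.2 and 11.1 FPKM and overlapped Asl, the enzyme that makes arginine. Nos2 lay just below Arg2 without overlap, and Arg1 was close to 0. For Arg2 28.1% of the exonic bases overlap a gene on the other strand. Odc1, ornithine decarboxylase, led the list at 57.5 ± 2.65 FPKM.

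Glycolysis was expressed through the whole pathway, in 26 of 30 isozyme and transporter genes, mostly with 1 dominant form per step. Pkm (pyruvate kinase M) lay at 935, 906 and 871 FPKM, Aldoa (aldolase A) at 655, 671 and 622 FPKM and Ldha at 366, 367 and 354 FPKM. Ldha was 92.2 ± 9.65 times as high as Ldhb. Aldoa was 9.28 ± 0.242 times as high as Aldoc. The hexokinases were an exception in kind, since the leading form was Hk3 at 119, 118 and 113 FPKM, 3.99 ± 0.0915 times Hk1. Of the glucose transporters in the list, Slc2a1 (GLUT1) lay at 63.5, 66.1 and 63.3 FPKM and Slc2a6 (GLUT6) at 35.4, 36 and 33.4 FPKM. Slc2a1 was 16.8 ± 0.802 times as high as Slc2a3. Gapdh was listed at 11.7, 10.5 and 10.7 FPKM, below its processed pseudogene Gapdh-ps15 at 33.6 ± 1.5 FPKM, which is 99.5% identical to it over 1002 aligned bases, so that the Gapdh level is not a measure of the gene.

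The NADPH oxidase of phagocytes makes superoxide. Its membrane subunits Cybb and Cyba lay at 337, 332 and 357 and at 328, 349 and 323 FPKM, with overlapping ranges. The cytosolic subunits Ncf4 and Ncf1 lay below them, at 122 to 124 and 112 to 116 FPKM. Nox1 and Nox4, the forms of other tissues, were at 0.02 and 0.197 FPKM. Among antioxidant genes Hmox1, haem oxygenase 1, reached 179 ± 4.46 FPKM, while Nqo1, like Hmox1 a known target of NRF2, lay at 0.25, 0.12 and 0.14 FPKM. Iron handling, with 15 of 16 genes expressed, was dominated by storage. Fth1 lay at 3538, 3696 and 3373 FPKM and was 1.19 ± 0.00983 times as high as Ftl1. Slc40a1, ferroportin, the iron exporter, lay at 1.76, 1.62 and 1.82 FPKM.

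In lipid handling 20 of 21 genes were expressed. Plin2, which coats lipid droplets, led at 231, 231 and 226 FPKM, and Scd2, a desaturase, followed at 105, 110 and 106 FPKM, 5.47 ± 0.27 times Scd1. Apoe, the apolipoprotein that many tissue macrophages make in quantity, lay at 3.3, 2.57 and 2.58 FPKM. In eicosanoid synthesis, Alox5ap, the partner of 5-lipoxygenase, lay at 80.5, 80.3 and 75.7 FPKM. Alox5 itself lay at 12.8 to 14.2 FPKM. Ptgs1 (COX-1) was 2.3 ± 0.176 times as high as the inducible Ptgs2, and Tbxas1, thromboxane synthase, was at 0.03 FPKM.

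Adhesion, matrix and cell cycle genes completed the lists. Itgb2 and Itgam, the chains of the CR3 integrin, lay at 222, 221 and 217 and at 158, 155 and 160.3 FPKM, but 68.7% of the exonic bases of Itgam belong also to another model on its strand. Plau (urokinase) lay at 89.5, 89.5 and 91.9 FPKM and its receptor Plaur at 71.9 to 78.1 FPKM, beside Mmp9, a gelatinase, at 70.2, 69.5 and 62.8 FPKM. Of 15 osteoclast genes 12 were expressed, among them Tcirg1, a proton pump subunit, at 95.2 to 102 FPKM, and Calcr, the calcitonin receptor, had 0 counts. In the cell cycle list, Pcna, Ccnd1 and Cdk4 all exceeded 50 FPKM in each library. Of the brakes, Cdkn1a (p21) lay at 42, 44.7 and 43 FPKM, whereas Cdkn2a, which encodes p16 and p19ARF, had 0 counts and its neighbour Cdkn2b had 4, all in replicate 2.

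The values above rest on libraries that lay close together. The coefficient of variation (SD divided by mean over the 3 libraries) had a median of 5.07% where the mean reached 1 FPKM. It shrank with level, from 26.9% at 0.1 to 1 FPKM to 6.36% at 1 to 10, 3.65% at 10 to 100 and 3.06% above 1000 FPKM. Of 6807 genes whose mean reached 5 FPKM, 6257 (91.9%) varied by under 10%, and 50 varied by over 30%. Pseudogenes were 26 of these 50 and 6.05% of the 6807. Rps18-ps6 was listed at 565, 0 and 554 FPKM and Rps18-ps4, on the other strand of the same place, at 0, 337 and 0 FPKM. Lyz1, the neighbour of Lyz2 and 95.8% identical to it over 1264 aligned transcript bases, lay at 34.8, 130.3 and 44.2 FPKM. Lyz2 was 383, 98 and 301 times as high in replicates 1, 2 and 3. Without replicate 2 the mean of Lyz1 was 39.5 instead of 69.8 FPKM.

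**Figure D5:**
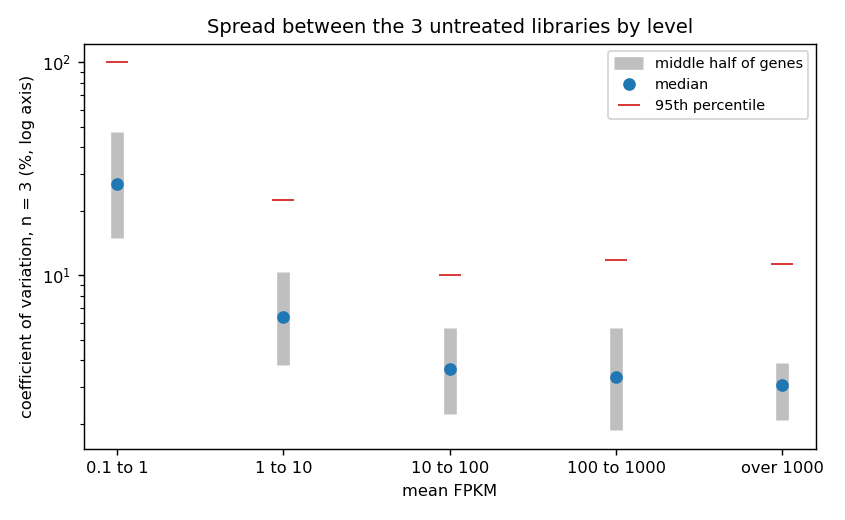
Coefficient of variation over the 3 untreated libraries (%, log axis) for genes grouped by mean FPKM, as the median (points), the interquartile range (bars) and the 95th percentile (dashes). The median falls from 26.9% at 0.1 to 1 FPKM to 3.06% above 1000 FPKM.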

How the data were processed

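RNA of RAW264.7 cells was sequenced as paired ends from poly(A)-selected, dUTP-stranded libraries. Build mm10 and the tools edgeR, DESeq2, StringTie 2.1.6, HISAT2 2.2.1 and cutadapt 1.9 are named, without roles, in the submitters' notes on processing. No source used here gives the annotation release, the strand setting or how reads were counted. Deposited by the authors were estimated counts per gene, which were already whole numbers, and FPKM values, which divide by transcript length and library total. Low estimated counts pile up at multiples of 4 (in replicate 1, 952 genes at 4 against 397 at 3 and 252 at 5), for an unknown reason, so counting intervals were not given. Where strand was ignored, reads of overlapping antisense genes were mixed. Among 494 genes that are in a list or among the 25 highest and whose mean reached 1 FPKM, 22 had 25% or more of their exonic bases inside another GENCODE M21 model.

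The 3 untreated libraries held 73077089 to 77337345 estimated counts. Counts of each pair were not the same (chi-square per degree of freedom 10.6 to 18.3), so no pair was treated as a repeat deposit of one library. The pile-up of low counts described above keeps this value from being read against Poisson noise. Whether the cultures were separate is not shown by it. Means and SDs were taken over FPKM with Python 3.11.15, pandas 2.3.3 and numpy 2.4.6, with no pseudocount. With 1 group there was no test and no p-value: genes were compared by whether the ranges of their 3 values overlap, and ratios were formed within each library. Scripts were tested on simulated data.

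Members and the 47 gene lists (792 genes, 759 with a value) were chosen with earlier results of these data known. Genes were named by a rule: the 25 highest, up to 5 highest and 5 count-free members per list, the 10 most variable at 5 FPKM or more, markers, and genes set by the study's aims. Some are left out for brevity, a few genes are counted in lists but not reported here, and further members and classes of the deposited annotation were named after values were seen. Of names with several rows the row with the most counts was used. Promoter windows were matched by Entrez identifier to RefSeq (GRCm38.p6), taking the window nearest the deposited start. Alternatives were other thresholds, TPM scaling, other filters, counts scaled by edgeR 4.0.16 or DESeq2 1.42.0 in R 4.3.3, log scales with pseudocounts of 1 and 0.1, and leaving out each library.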

Additional observations from a re-analysis of the deposited data

How the results depend on the processing

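No paired analysis was possible because the results come from 1 group and from no test. Of the settings run, the number of expressed genes stayed within 1.5 times of 10722 except at a threshold of 5 FPKM, where it was 6583. It was 14587 at 0.1 FPKM, 12448 on the TPM scale and 10812 to 10822 with one library left out. Without the genes of the mitochondrial chromosome, but with their nuclear copies kept, the share of the 10 highest genes was 16.1%. By deposited counts, which are not corrected for length, it was 12.1%. It ranged from 16.9% to 17.3% with one library left out. The share of the 100 highest genes was 37.9%, 28% and, among nuclear protein-coding genes (a setting chosen after seeing the data), 36.1%, and 43.2% to 43.5% with one library left out. The median coefficient of variation was 7.21% from 0.1 FPKM, 4.06% from 5 FPKM, 4.28% on log2(FPKM + 1), 5.07% on TMM-scaled and 5.08% on size-factor-scaled counts. It was 3.47% to 4.65% with one library left out, where only 2 libraries remain. The number of list genes expressed was 563 at 0.1 FPKM, 371 at 5 FPKM and 480 to 483 with one library left out. Over the 47 lists, the number expressed moved by over 1.5 times in 9 at 0.1 FPKM, in 12 at 5 FPKM and in 0 with one library left out. Of 494 genes at 1 FPKM or more that are among the 25 highest or in a list, 0 moved in mean level by over 1.5 times with one library left out. Of 53 further genes at that level that were looked up beside them, 8 did: Lyz1, Rnasek, Rpl17-ps10 and Rps18-ps4 without replicate 2, which was the highest for each, and Brms1, Gm38431, Gm15501 and Gm20716 without replicate 3. The mean of Rps18-ps4 without replicate 2 was 0 instead of 112 FPKM.

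The number of libraries, 3 of one line, limits these values. They hold no measure of variation between passages or between laboratories, and an FPKM level says nothing of protein. Genes with a mean of 0.1 to 1 FPKM varied by 26.9% at the median, so orders among genes under 1 FPKM were not read.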

Other observations

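Further classes of the deposited annotation, chosen after list values had been seen, show which signalling proteins the resting cells transcribed. Of 111 protein-coding genes annotated with tyrosine kinase activity, 51 were expressed. Below Csf1r lay the Src-family kinase Lyn at 74 FPKM, Csk, which restrains that family, at 36.6 FPKM, Fgr at 35.3 FPKM, Syk, which acts below Fc receptors and DAP12, at 29.3 FPKM, and Btk at 15.9 FPKM. Lck, the Src-family kinase of T cells, was expressed at 1.65 FPKM, and Lyn was 44.9 ± 1.51 times as high. Of 384 serine/threonine kinase genes 264 were expressed, led by Mapkapk2, a kinase below p38, at 159.9 FPKM. Among 136 phosphatase genes, of which 95 were expressed, Ptpn6, the phosphatase SHP-1 that inhibitory receptors recruit, was the highest at 98.7 FPKM, followed by Dusp4, which acts on MAP kinases, at 96.1 FPKM.

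Genes annotated with ion channel activity itself or with G protein-coupled receptor activity were sparsely expressed. Of 148 genes annotated with ion channel activity itself 17 were expressed, led by Trpv2 at 40 FPKM. Itpr3, an inositol trisphosphate receptor, followed at 22.6 FPKM and the proton channel Hvcn1 at 15.7 FPKM. Channels annotated only with a narrower activity are not in that count. Of 71 genes annotated with calcium channel activity 24 were expressed (33.8%), among them Mcoln2 at 27.2 FPKM, above Itpr3. Among P2X channels, P2rx4 at 12.8 ± 0.607 FPKM and P2rx7 at 12.7 ± 0.163 FPKM overlapped, and the other 5 stayed under 1 FPKM. Of 399 genes annotated with G protein-coupled receptor activity 44 were expressed (11%). After Adgre1 these were led by Ptgir, the prostacyclin receptor, at 54.1 ± 0.514 FPKM. Hcar2, which binds nicotinic acid and hydroxybutyrate, followed at 48.8 ± 1.28 FPKM and C3ar1 at 36.8 FPKM. Next came Gpr84, a receptor for medium-chain fatty acids, at 28.6 ± 0.774 FPKM. For Gpr84 39.5% of the exonic bases overlap a model on the other strand.

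Some protein-coding genes varied between libraries far beyond others of their level. Rnasek lay at 6.03, 42.5 and 5.04 FPKM, Brms1 at 1, 2.28 and 12.1 FPKM, and Raver1 at 24.3, 23.8 and 5.31 FPKM. The span of Raver1 overlaps that of the gene model Gm38431 on the same strand, which lay at 1.84, 3.86 and 15.25 FPKM. Gm38431 was thus high in the library in which Raver1 was low, and how reads were divided between them was not tested. Rpl17, a ribosomal protein gene, lay at 466, 77.3 and 369.6 FPKM, and its pseudogene Rpl17-ps10, 99.3% identical over 555 aligned bases, at 231, 645 and 277 FPKM. The pseudogene was therefore high in the library in which the gene was low. Without replicate 2 the mean of Rnasek was 5.54 instead of 17.8 FPKM and that of Rpl17-ps10 254 instead of 384 FPKM, and without replicate 3 that of Brms1 was 1.64 instead of 5.11 FPKM. Gm38431, at 2.85 instead of 6.98 FPKM, Gm20716, at 3.27 instead of 6.08 FPKM, and Gm15501, at 10.3 instead of 18.5 FPKM, were also lower without replicate 3. Atp6v0c, a proton pump subunit, lay at 117, 124 and 106 FPKM beside 889, 866 and 838 FPKM for Atp6v0c-ps2, which is 99.8% identical to it over 465 bases. For both, reads of the gene and its copy cannot be told apart in this table, and their part in these values was not tested. The remaining genes of the 10 most variable were the gene models Gm38431, Gm20716, Gm20521, Gm15501 and Gm2274.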
